A study of Glycine max with 24 samples.

Results

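A set of 77 transcripts, from 65 genes, of the 73320 transcripts measured (54175 genes) fell early in the soybean cotyledon and rose early in the trifoliate leaf. A transcript was a member when its stage mean on the deposited log2 scale fell by at least 1.5 from C-I to C-II and rose by at least 1.5 from L-I to L-II, with no overlap between the replicates of the 2 stages in either organ. The values of C-I, C-II, L-I and L-II therefore chose the members and are described here without a test. Tests were run only among the 3 later leaf stages, L-III to L-V, whose libraries had no part in the choice.

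The series followed normal development of cotyledons and leaves of Glycine max, cultivar Williams 82, by RNA sequencing, in 24 libraries with 3 biological replicates for each stage. Cotyledons were taken 4 (C-I), 15 (C-II) and 27 (C-III) days after planting. Leaves were trifoliates of the fourth node, taken at V3, when they were open but not fully expanded (L-I), and then 2 (L-II), 4 (L-III), 6 (L-IV) and 7 (L-V) weeks later according to the labels. The study's methods give other intervals, which are longer for L-II and L-III, so the leaf ages are uncertain. No plant carried a transgene or received a treatment, and all were kept in growth chambers at constant temperature with light and dark periods of equal length. The youngest cotyledons came from seedlings on MS medium in magenta boxes, whereas the plants of the other 2 cotyledon stages stood in soil. Stage and growth medium therefore cannot be told apart in the cotyledon fall. Each leaf replicate was 1 trifoliate and each cotyledon replicate 1 pair of cotyledons.

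The soybean cotyledon is a seed storage organ that turns green after emergence, feeds the seedling and is then shed. The trifoliate leaf starts as a growing organ that imports sugar and becomes an exporter once expanded. Germinating seeds and young seedlings use fermentation enzymes such as alcohol dehydrogenase, and late embryo proteins such as dehydrins protect cells from drying, whereas in leaves the same gene families are known mainly from responses to low oxygen, cold, heat and drought.

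Cotyledon libraries held 2163050 to 20839594 recovered reads and leaf libraries 1852184 to 6887154. In normalized counts, 3 reads were worth 0.833 to 8.96 depending on the cotyledon library and 1.71 to 8.52 depending on the leaf library. Replicates of a stage correlated between 0.841 (the lowest pair, at L-I) and 0.967 over transcripts, and no 2 replicates of a stage held identical values. The library L-II replicate 3 stood apart in the photosynthesis transcripts, of which 160 were annotated: their summed normalized count was 120651 there, against 560952 and 443418 in L-II replicates 1 and 2 and between 410190 and 563874 at L-I. Without L-II replicate 3 the rule found 110 members, of which 68 were among the 77, and its part in the leaf rise was not tested. The organs were scaled in separate tables, so that changes, not levels, can be set side by side between them. In whole organs, fewer cells of a type and less RNA per cell cannot be told apart.

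The cotyledon fall of the members ranged from 1.504 to 5.21 on the deposited log2 scale, with a median of 2.07, and the leaf rise ranged from 1.53 to 5.84, with a median of 2.27. Of all transcripts, 9.06% met the cotyledon criterion (6643), 3.48% met the leaf criterion (2549) and 0.105% met both. By the same criteria 1218 transcripts rose in both organs and 1942 fell in both, and the opposite pattern, a rise in the cotyledon with a fall in the leaf, held 167 transcripts. Another 4624 transcripts fell in the cotyledon without passing the leaf limit, and 1254 transcripts rose in the leaf without passing the cotyledon limit.

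**Figure D1:**
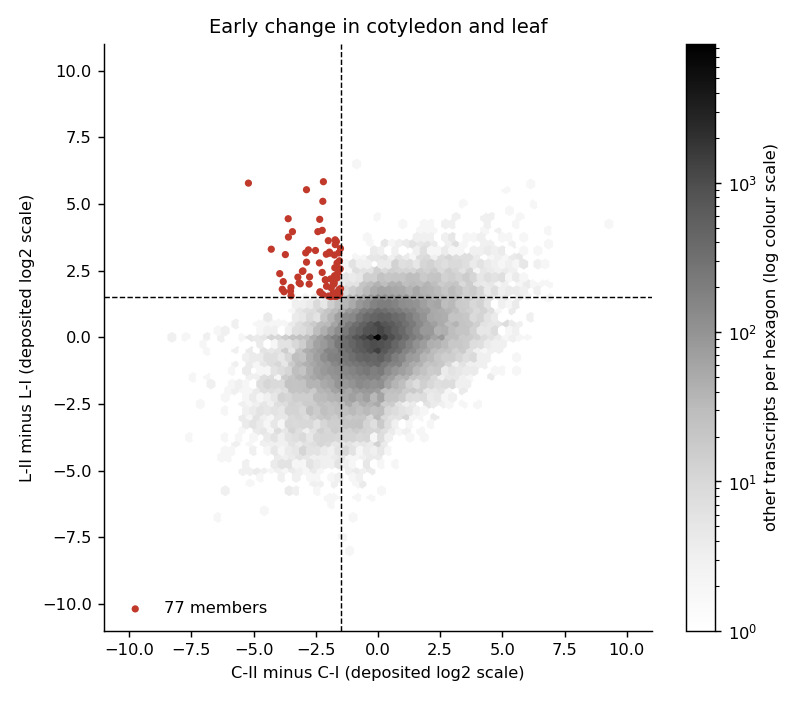
Stage-mean change from C-I to C-II (horizontal axis) against that from L-I to L-II (vertical axis), both on the deposited log2 scale, with the 77 members as red points, all other transcripts as grey hexagons on a log colour scale and the limits of 1.5 as dashed lines. The members occupy the sparse upper left corner, which the rule fixes, with falls down to -5.21 and rises up to 5.84.

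The limits cut through a continuum. Just inside the cotyledon limit lay Glyma20g33101.1 (-1.504) and Glyma01g25930.1 (-1.509), and just outside it Glyma13g40880.1 (-1.497) and Glyma15g19670.5 (-1.481). At the leaf limit, Glyma06g09550.1 and Glyma11g04150.1 were inside at 1.531, and Glyma04g41490.3 (1.499) and Glyma07g05845.1 (1.491) were outside. Depth also set the reach of the rule. At least 10 reads were found at C-I and at L-II for 73 members, and at least 100 reads at both for 32. No read was found at L-I for 9 members and at C-II for 8. For some of them the higher stage mean was itself below the floor of 3 reads per library, so no fold bound can be given. At L-I (floor 4.87) these were Glyma06g09550.1, Glyma12g01500.2, Glyma14g39730.2 and Glyma20g33101.1. At C-II (floor 4.46) they were Glyma02g36605.1, Glyma07g03427.2, Glyma07g03427.3, Glyma07g08620.1 and Glyma18g18921.1.

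The supplementary annotation sheets named 17 of the 65 genes (24 transcripts). The other 48 genes had no name there, and because those sheets hold mostly transcripts chosen by the study for change, no share of annotated functions can be read from them. Most named members fell into fermentation and low-oxygen genes, stress and late embryo proteins, regulators, a detoxification enzyme, a cell wall enzyme, carriers and metabolic enzymes, and repeat proteins. Outside these groups were maternal effect embryo arrest 59 and Glyma16g01790, annotated as STRUBBELIG-receptor family 6.

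Both genes annotated here as fermentation enzymes were alcohol dehydrogenase 1. The enzyme reduces acetaldehyde to ethanol and so regenerates NAD for glycolysis when oxygen is short. Glyma04g41990.1 had 23.9, 28.1 and 18.5 normalized counts at C-I and 2.72, 5.34 and 1.33 at C-II. In the leaf it had no read in the 3 L-I libraries and 101, 134 and 53.0 normalized counts at L-II, with a mean at least 19.7-fold higher than the L-I floor of 3 reads per library. The rule required the L-II libraries to lie above those of L-I, and replicate 3 was the lowest of them. From there the level was 88.7, 38.2 and 38.8 at L-III, 9.61, 8.87 and 18.7 at L-IV and 4.45, 6.17 and 8.05 at L-V, so that the libraries of L-III lay above those of both later stages. The second gene, Glyma06g12780, had 2 member transcripts. Its transcript Glyma06g12780.2 had 26.9, 14.9 and 28.9 normalized counts at C-I, 10.9, 2.87 and 3.98 at C-II, 5.68, 10.5 and 0.986 at L-I and 42.7, 66.9 and 38.3 at L-II. That these stages did not overlap in either organ was a condition of the rule. The later leaf means were 15.2, 3.12 and 3.38 in stages L-III to L-V. Of the 5 genes with that annotation, 2 were members. Of the 7 transcripts of the family, 5 met the cotyledon criterion and 4 the leaf criterion, and 1 fell past the limit in the leaf. This family was looked at after its values were seen. Of all transcripts with enough reads in both organs, 11.4% met the cotyledon criterion and 4.96% the leaf criterion, and 8.40% fell in the leaf. The annotated genes were mostly chosen by the study for change, so no family trait can be read from these counts.

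Glyma08g48040.2 encodes LOB domain-containing protein 41, whose Arabidopsis counterpart is a transcription factor gene induced by low oxygen. It had 355, 223 and 377 normalized counts at C-I and 27.2, 19.7 and 21.3 at C-II. At C-III it had a value above 0 only in replicate 2 (6.11), so that the C-III libraries lay below those of C-II. The gap between C-I and C-II was a condition of the rule. Its leaf values were 8.52, 1.05 and 4.93 at L-I and 127, 190 and 28.7 at L-II. The lowest L-II value was again that of replicate 3, the library with few photosynthesis transcripts. The L-III values of 74.4, 74.7 and 45.2 lay above the L-V values of 3.56, 13.4 and 2.2.

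Among the stress and late embryo proteins, the dehydrin gene Glyma17g24193 had all 3 of its transcripts in the set. Dehydrins are hydrophilic proteins that accumulate in late embryos and in drying or chilled tissue. Transcript Glyma17g24193.1 had 3860, 3327 and 3484 normalized counts at C-I, 1208, 1338 and 1032 at C-II and 1451, 2427 and 2940 at C-III. All C-III libraries were thus above the C-II libraries and below those of C-I. In the leaf it had 139, 428 and 244 at L-I and 1867, 1950 and 3008 at L-II, and the means of stages L-III to L-V were 1939 ± 226, 2013 ± 273 and 1679 ± 294 (SD, n = 3). The leaf rise of this gene was therefore followed by a plateau: between L-III and L-V the 3 transcripts changed by -0.22 (SE 0.26), -0.14 (SE 0.29) and -0.16 (SE 0.27) on the scale of log2(normalized count + 1), and none was called.

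The heat shock protein 21 transcript Glyma18g10760.2 took a different course. In Arabidopsis this small heat shock protein protects chloroplasts during heat. It had 1349, 1118 and 1163 normalized counts at C-I, 305, 334 and 264 at C-II and 7.11, 3.61 and 7.98 at C-III. Its drop from C-II to C-III of 5.05 on the deposited log2 scale was the largest of any member. Leaf libraries held 8.52, 18.8 and 26.6 at L-I, 213, 264 and 242 at L-II and 58.3, 5.13 and 51.7 at L-III. Only 2 reads were left at L-IV and 1 at L-V, against 118 at L-III. Both organs thus ended with almost none of this transcript, although at L-III replicate 2 was far below the other two.

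The transcript of Glyma11g12505.1, annotated as cold, circadian rhythm and RNA binding 2 (in Arabidopsis a clock-controlled glycine-rich RNA-binding protein that is raised by cold), had 27980, 21681 and 25517 normalized counts at C-I and 8155, 8929 and 8048 at C-II. It had 9895, 13734 and 17601 at C-III. In the leaf it had 1154, 868 and 1054 at L-I and 3161, 2496 and 3549 at L-II. The later leaf stages overlapped, with means of 3014 ± 1179, 3709 ± 381 and 2253 ± 1024 in order of stage (SD, n = 3). Samples were collected at 1 time of day, so that a shift in rhythm and a shift in level cannot be told apart.

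A pair of annotated members belong to regulator families of the photoperiod response. Nuclear factor Y subunit B3 (Glyma05g31681.1) is, in Arabidopsis, a partner of CONSTANS in flowering. It had only 23 reads at C-I and none at C-II, and no read at L-I, but it reached 50.5, 49.0 and 58.9 normalized counts at L-II. The L-II mean was at least 10.8-fold above the L-I floor of 3 reads per library, and the 3 L-II libraries lay close together. At L-III the values spread from 2.28 to 25.9 and at L-V from 1.78 to 27.1. The cotyledon fall of this member rests on few reads, with the C-I mean at least 1.17-fold above the same kind of floor.

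Glyma10g42090.1 encodes a B-box zinc finger protein with a CCT domain, the domain pair of the CONSTANS family. It had 737, 445 and 706 normalized counts at C-I, 43.5, 32.4 and 34.5 at C-II and 27.2, 42.2 and 49.5 at C-III. The cotyledon level therefore stayed near the C-II level at C-III. In the leaf it had 11.4, 2.09 and 6.91 at L-I, 42.7, 27.5 and 67.0 at L-II and 31.3, 41.6 and 14.2 at L-III. At L-V all 3 libraries were low and close together, at 3.56, 3.08 and 2.93. Among the 5 annotated B-box genes, looked at after the values were seen, 1 fell and 4 rose in the cotyledon by the limits used here, and 2 rose and none fell in the leaf. Of the 14 nuclear factor Y transcripts with enough reads, a family also looked at afterwards, 10 rose in the leaf and none fell, while 1 fell and 2 rose in the cotyledon. Over all transcripts with enough reads in both organs, 11.4% fell and 10.9% rose in the cotyledon. In the leaf 4.96% rose and 8.40% fell.

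Glutathione S-transferase TAU 19 (Glyma08g18640.1) belongs to a plant enzyme family that joins glutathione to reactive compounds. It had 11816, 13922 and 10712 normalized counts at C-I, 667, 1054 and 829 at C-II and 158, 140 and 211 at C-III. The fall thus went on through both cotyledon steps, by 6.15 in all on the deposited log2 scale. Leaf levels were 1134, 1372 and 648 at L-I and 4945, 3298 and 2658 at L-II. At L-V the libraries spread from 265 to 1682, and the change from L-III of -1.44 (SE 0.56) was not called (limma, adjusted p = 0.141). Of the 8 annotated glutathione transferase transcripts, 6 met the leaf criterion, 1 met the cotyledon criterion and 3 rose past the limit in the cotyledon. The shares over all transcripts with enough reads in both organs were 4.96%, 11.4% and 10.9% in that order. Annotated transcripts were mostly chosen by the study for change.

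Xyloglucan:xyloglucosyl transferase 33 (Glyma18g18931.1), an enzyme that cuts and rejoins the xyloglucan chains of the cell wall, turned upward again in both organs. It had 29.9, 57.1 and 27.3 normalized counts at C-I, 0, 4.93 and 7.97 at C-II and 62.8, 58.6 and 108 at C-III. The rise from C-II to C-III of 3.84 on the deposited log2 scale was the largest of the members, and the C-III libraries all lay above the C-I libraries. In the leaf it had no read at L-I, 33.7, 115 and 95.7 at L-II, 28.7, 13.7 and 12.9 at L-III, 147, 549 and 265 at L-IV and 233, 207 and 149 at L-V. The mean at L-V was at least 40.3-fold above the L-I floor, taken as 3 reads per library. Of 164 annotated cell wall transcripts with enough reads, 25 rose and 110 fell early in the leaf. In the cotyledon 82 fell and 24 rose early, and this was the 1 member among them. Over all transcripts with enough reads in both organs, 4.96% rose and 8.40% fell in the leaf. The cotyledon shares were 11.4% down and 10.9% up.

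The neighbouring gene Glyma18g18921, with no other gene between the 2 loci in the annotation, was also a member and had no name in the sheets. Its transcript had 8.01, 51.8 and 37.3 normalized counts at L-IV and 32.1, 55.5 and 36.6 at L-V, after 6.76, 2.28 and 2.59 at L-III. Like its neighbour, it thus had a low stage at L-III between higher ones, with 29.2, 15.5 and 11.8 at L-II. No read was found at C-II, but the C-I mean of 4.15 was itself below the C-II floor of 4.46. Its cotyledon fall therefore has no fold bound. Reads that fitted more than 1 transcript had been discarded, but it was not tested whether the 2 loci share sequence. Glyma06g45370 and Glyma06g45381 were a second adjacent pair, and Glyma16g01790 and Glyma16g01820 lay with 1 gene between them.

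Of the carriers, uncoupling protein 5 (Glyma02g04620.1), a mitochondrial carrier, had 457, 431 and 257 normalized counts at C-I, 76.2, 50.1 and 62.4 at C-II and 84.1, 85.0 and 73.4 at C-III. Its leaf values were 17, 0 and 9.86 at L-I, 44.9, 86.0 and 83.2 at L-II, 12.7, 24.5 and 2.59 at L-III, 37.6, 234 and 254 at L-IV and 11.6, 27.8 and 52.0 at L-V. Thus it had a second high stage at L-IV, where replicate 1 was far below the other two. The major facilitator superfamily transcript Glyma04g00600.2, from a large family of membrane transporters, had 12 reads at C-I and 4 at C-II. In the leaf it had 0, 0 and 5.92 normalized counts at L-I and 6.73, 8.36 and 41.2 at L-II. The highest L-II value was that of replicate 3, the library with few photosynthesis transcripts. That all L-II libraries lay above those of L-I was a condition of the rule. Later this transcript reached 40.8, 51.8 and 57.0 at L-IV and 46.3, 53.5 and 61.5 at L-V.

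The deoxyxylulose-5-phosphate synthase transcript Glyma15g10610.1, for the entry enzyme of plastid isoprenoid synthesis, had 5.97, 16.7 and 22.5 normalized counts at C-I and 10.1, 22.7 and 15.5 at L-II, and 3 reads in all at L-V. The mitochondrial, transport and plastid members thus had their highest leaf level at different stages. Maternal effect embryo arrest 59 (Glyma18g07520.2), named after an Arabidopsis embryo mutant, had 466, 290 and 485 at C-I, 59.9, 52.1 and 45.2 at C-II, 14.2, 8.36 and 8.88 at L-I and 119, 77.6 and 80.2 at L-II. It came back in part at C-III (123, 131 and 161).

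The tetratricopeptide repeat proteins, whose repeats bind other proteins, gave 2 genes and 5 member transcripts. Glyma13g44210.1 had 275, 288 and 186 normalized counts at C-I, 0, 12.3 and 7.97 at C-II, 0, 7.32 and 0.986 at L-I and 150, 134 and 459 at L-II. Its fall of 5.21 was the largest of the members, and at L-II replicate 3 was here the highest library, unlike in the fermentation genes. Glyma07g03427.1 had 5.97, 52.7 and 16.9 at C-I and 476, 423 and 200 at L-II, against 2.84, 29.3 and 19.7 at L-I.

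**Figure D2:**
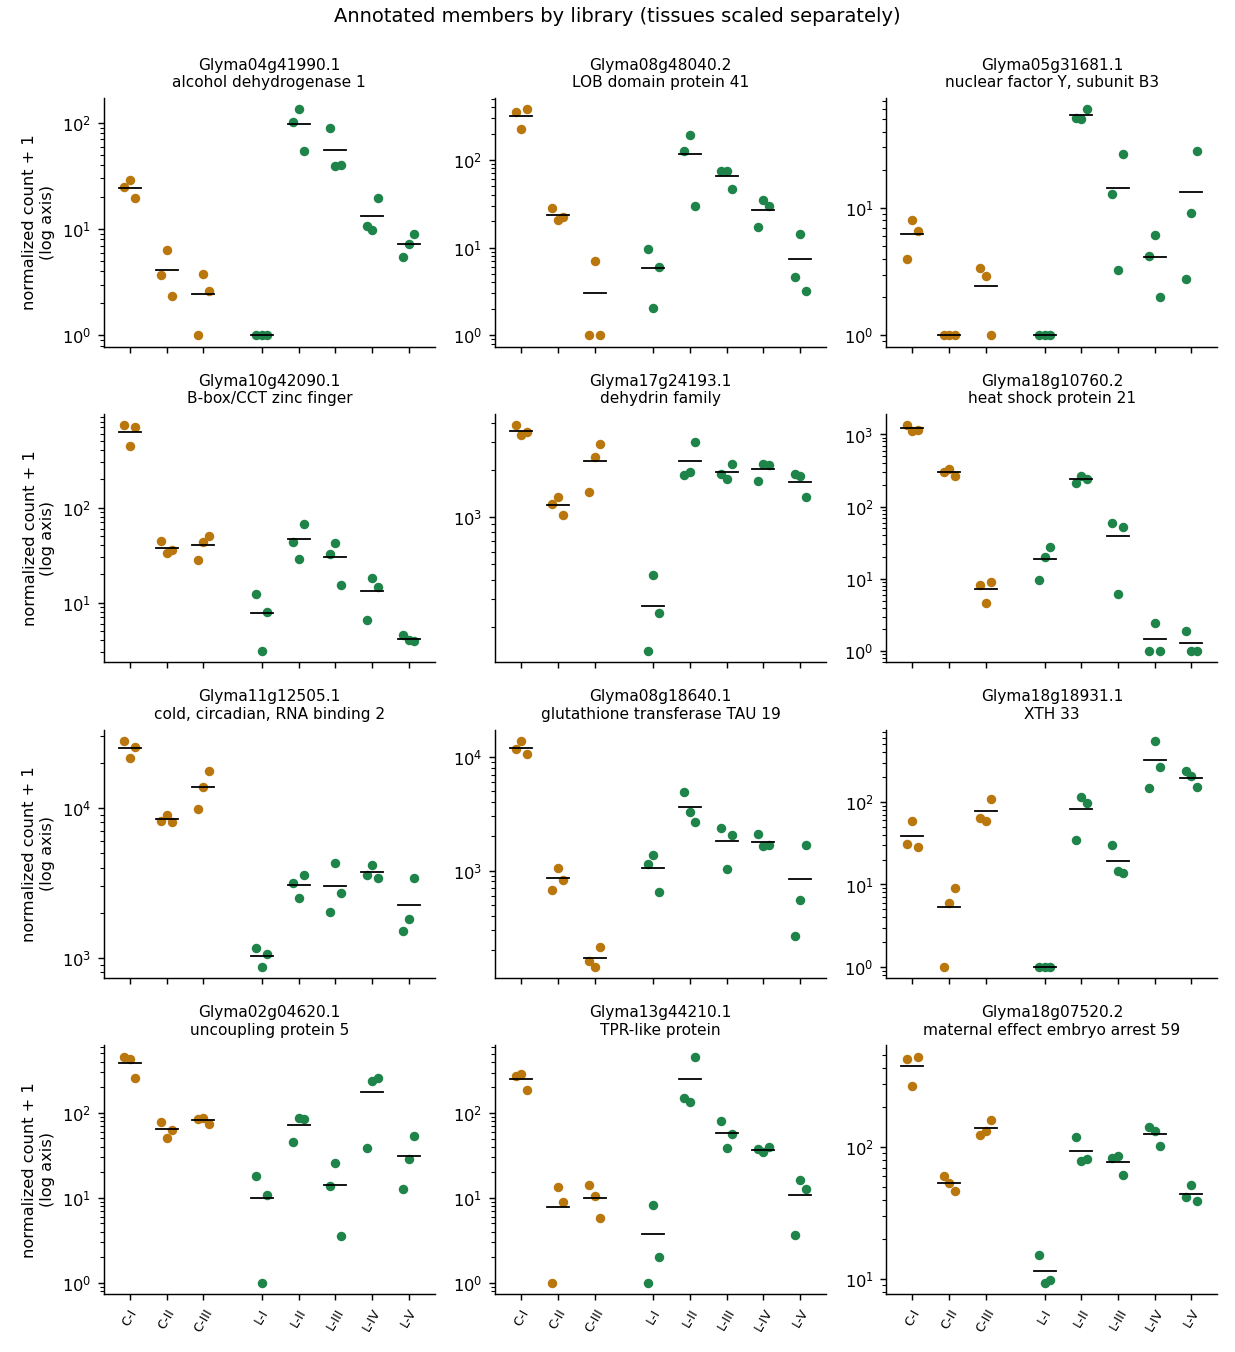
Normalized count + 1 (vertical log axis) of 12 annotated members in every library, by stage, with cotyledon libraries in brown, leaf libraries in green and the mean of the 3 replicates as a black line. Heat shock protein 21 falls to 2 reads at L-IV, the dehydrin stays near its L-II level, with a mean of 1679 at L-V, and xyloglucan:xyloglucosyl transferase 33 is higher again at C-III (mean 76.6) and at L-IV (mean 321).

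Several transcripts of 1 gene were often members together. Of the 65 genes, 25 had more than 1 transcript in the annotation, and 9 had 2 or more member transcripts (21 transcripts). These transcripts share their source and are not independent, although only reads unique to a transcript were counted. The unnamed gene Glyma18g06840 had 3 of them, and its transcript Glyma18g06840.3 had 3380, 5291 and 3911 normalized counts at C-I, 604, 261 and 236 at C-II, 2.84, 10.5 and 3.95 at L-I and 67.3, 182 and 410 at L-II. At L-V replicate 1 had 1425, against 258 and 321 in the other two. Member genes also had 26 transcripts that were not members. Of the 24 with enough reads in both organs, 23 were lower at C-II than at C-I and higher at L-II than at L-I. Among the 48223 non-member transcripts with enough reads, 18.2% had both directions. These are counts from the same libraries that chose the members and were not tested.

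At the last cotyledon stage most members stayed below their first level. C-III libraries lay wholly below C-I for 65 of the 77 members and wholly above for 2, where 29.9% and 28% of all transcripts with enough reads did so, respectively, but C-I was chosen as the high stage and nothing can be read from that count. C-I was the highest cotyledon stage for 73 members and C-III for 4. From C-II to C-III, 21 members were higher and 15 lower without overlap, with a background of 17.6% higher and 17.1% lower. C-II was chosen as the low stage.

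The 3 members that dropped most from C-II to C-III were heat shock protein 21, LOB domain-containing protein 41 (by 3.09 on the deposited log2 scale) and the unnamed Glyma15g30110.1 (by 2.49). Besides the xyloglucan enzyme, those that came back most were Glyma10g30880.4 and Glyma18g18921.1 (2.43). Glyma10g30880.4 had 13.6, 21.8 and 5.31 normalized counts at C-II and 99.5, 109 and 123 at C-III, above its C-I values of 74.6, 55.4 and 54.2. It had between 4.44 and 16.9 normalized counts in every leaf library from L-II onward, without a late rise there.

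In the leaf, L-II was the highest stage for 52 members, L-III for 3, L-IV for 10 and L-V for 12. Compared with L-I, 42, 41 and 30 members were still higher without overlap in stages L-III to L-V in turn, where the background was 16.7%, 21.7% and 20.1%, and again the choice of L-I as the low stage enters these counts. The median member stood above L-I by 1.68 at L-III, by 1.495 at L-IV and by 0.85 at L-V on the deposited log2 scale. Compared with L-II, no member was higher without overlap at L-III (background 9.24%) and 27 were lower (9.6%), 4 were higher (17.1%) and 38 lower (15.3%) at L-IV, and 6 were higher (16.1%) and 43 lower (16.7%) at L-V, with L-II chosen as the high stage. By L-V, 6 members were lower than at L-I without overlap (background 25.8%).

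**Figure D3:**
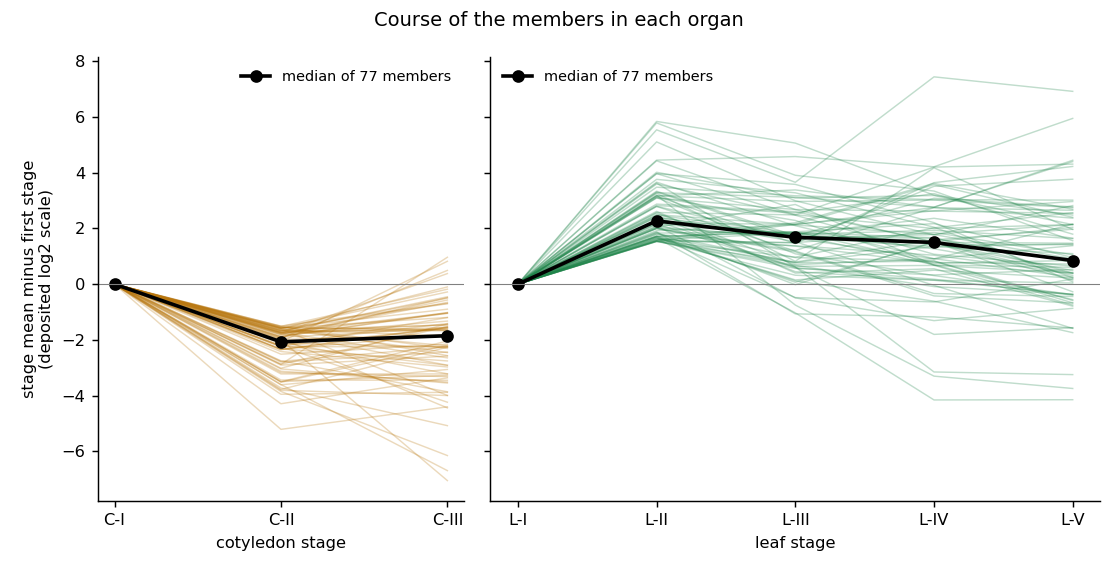
Stage means of each member minus its first stage (vertical axis, deposited log2 scale) in cotyledon (left) and leaf (right), with 1 thin line for each of the 77 members and their median in black. The median is -2.07 at C-II and -1.85 at C-III in the cotyledon, and 2.27 at L-II and 0.85 at L-V in the leaf, and single members spread from -4.15 to 6.92 at L-V.

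The late leaf stages gave the comparisons that the rule did not use. They ask whether the early rise was followed by a loss or by a further gain as the leaf aged. A change was called where limma gave a Benjamini-Hochberg adjusted p below 0.05 over all 46072 transcripts tested and a change of more than 1.5 on the scale of log2(normalized count + 1). Of the members, 72 had enough reads in the late leaf and 5 did not. In all, 17 members were called in at least 1 late comparison, 6 upward and 11 downward, 8 of them in both comparisons with L-III, and 55 were called in none. The same joint numbers were not counted over all transcripts, so they stand without a background and nothing about the members can be read from them.

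From L-III to L-IV, 5 members rose and 4 fell, that is 6.94% and 5.56% of those tested, where 2.04% of all transcripts tested rose and 0.731% fell. From L-III to L-V, 5 rose (6.94%; background 3.05%) and 11 fell (15.3%; background 3.56%). The median member changed by -0.50 from L-III to L-V and the median of all transcripts by 0.01. For comparison, of the transcripts that fell early in the cotyledon without passing the leaf limit, 7.30% fell and 1.68% rose from L-III to L-V, of those that rose early in the leaf without passing the cotyledon limit 5.84% fell and 5.24% rose, and of those that fell early in both organs 15.7% fell and 0.88% rose. Of those that rose early in both organs 9.78% fell and 11.8% rose, and of those that rose early in the cotyledon and fell early in the leaf 12.9% fell and 9.35% rose. These shares were not tested against each other. From L-IV to L-V, limma called no member, and voom on the recovered reads called none either (background 0.00434% upward and 0.0412% downward). At an unadjusted p below 0.05, 3 members were higher and 16 lower at L-V, which is 4.17% and 22.2% of those tested, where 4.06% and 7.3% of all transcripts tested were.

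Counted by overlap alone, 15 of the 77 members were higher (background 11.6%) and 13 lower (9.69%) at L-IV than at L-III, 9 were higher (11.3%) and 17 lower (11.8%) at L-V than at L-III, and 6 were higher (6.97%) and 14 lower (10%) at L-V than at L-IV. These overlap counts were not tested against the background. The counts of calls depended on single libraries. From L-III to L-IV, rises numbered 1 without L-III replicate 1, L-IV replicate 2 or L-IV replicate 3, 2 without L-III replicate 3 and 3 without L-V replicate 2, and falls numbered 0 without L-III replicate 1 or 3, 1 without L-IV replicate 1 or 2 and 2 without L-IV replicate 3. From L-III to L-V, falls numbered 7 without L-III replicate 1 and 19 without L-V replicate 3, and rises numbered 8 without L-III replicate 2.

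The rises were led by the cell wall enzyme. Xyloglucan:xyloglucosyl transferase 33 rose by 3.93 (SE 0.45, limma, adjusted p = 0.00196) from L-III to L-IV and by 3.41 (SE 0.45, adjusted p = 0.00185) to L-V. All 3 libraries of L-IV and of L-V were above all 3 of L-III, and both calls held under all 17 alternative settings, leaving out each library included. Its neighbour Glyma18g18921.1 rose by 3.20 (SE 0.61, adjusted p = 0.00967) to L-V, a call lost only when transcripts with few reads were kept in, and by 2.55 (SE 0.61, adjusted p = 0.0466) to L-IV, a call kept under 3 of the 17 alternatives. The unnamed Glyma15g15680.1 had 24.5, 11.4 and 20.7 normalized counts at L-III, 79.3, 82.8 and 87.5 at L-IV and 221, 85.3 and 52.0 at L-V. It rose by 2.40 (SE 0.46, adjusted p = 0.0103) to L-V without overlap, a call lost with no filter on reads. The transporter transcript Glyma04g00600.2 rose by 1.97 (SE 0.34, adjusted p = 0.00598) to L-V, from 7.61, 17.7 and 15.5 at L-III, a call lost when all 15 leaf libraries were fitted (adjusted p = 0.108). Glyma04g41490.4, from an unnamed gene, rose by 1.64 (SE 0.27, adjusted p = 0.00453), a call lost without L-III replicate 1. Uncoupling protein 5 rose by 3.62 (SE 0.84, adjusted p = 0.0414) to L-IV, where 8 of the 17 alternatives kept the call and leaving out L-III replicate 1 or 3, L-IV replicate 2 or 3 or L-V replicate 2 ended it.

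The falls included heat shock protein 21, the alcohol dehydrogenase gene Glyma04g41990 and LOB domain-containing protein 41, while the other alcohol dehydrogenase gene was not called (Glyma06g12780.1, -1.26 from L-III to L-V, SE 0.49, adjusted p = 0.143, and Glyma06g12780.2, -2.02, SE 0.61, adjusted p = 0.0656). Heat shock protein 21 (Glyma18g10760.2) fell by 4.44 (SE 0.82, limma, adjusted p = 0.00869) from L-III to L-V. The ratio of pooled reads was 57.5 for L-III over L-IV (95% interval 15.6 to 481) and 110 for L-III over L-V (19.4 to 4384), which cover counting error only. The call to L-V was lost without L-III replicate 1, without L-III replicate 3, with no filter on reads and with voom. Alcohol dehydrogenase 1 (Glyma04g41990.1) fell by 2.88 (SE 0.43, adjusted p = 0.00319) to L-V under all 17 alternatives and by 2.03 (SE 0.43, adjusted p = 0.0288) to L-IV, the latter lost with no filter on reads, without L-III replicate 1 or 3 and without L-IV replicate 1 or 2. LOB domain-containing protein 41 fell by 3.43 (SE 0.52, adjusted p = 0.00349), the B-box protein by 2.72 (SE 0.49, adjusted p = 0.00754) and the repeat protein Glyma13g44210.1 by 2.61 (SE 0.50, adjusted p = 0.0104) to L-V. In all these genes the L-V libraries lay below the L-III libraries without overlap. The calls of the last 3 were lost with no filter on reads, and that of the repeat protein also without L-III replicate 1.

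The other falls were of unnamed genes. Glyma15g30110.1 had 8.45, 12.5 and 9.05 normalized counts at L-III, 2 reads at L-IV and none at L-V, so that the L-V mean, set at a floor of 3 reads per library, was at least 3.78-fold lower than the L-III mean. At L-II it had stood at 237, 416 and 75.8, far above both neighbouring stages. Glyma18g53440.1 had 359, 540 and 43.4 at L-II, 173, 190 and 118 at L-III and 2.67, 30.8 and 12.4 at L-V, and fell by 3.76 (SE 0.60, limma, adjusted p = 0.00441), a call lost with no filter on reads. Glyma06g45370.1 fell by 3.59 (SE 0.53, adjusted p = 0.00299), from 37.2, 18.2 and 16.8 at L-III to 4 reads in all at L-V, under all 17 alternatives. Glyma11g00550.1 fell from 106, 139 and 167 at L-III to 9.61, 5.18 and 35.4 at L-IV and 4.45, 17.5 and 23.4 at L-V, by 3.34 (SE 0.66, adjusted p = 0.0208) and 3.33 (SE 0.66, adjusted p = 0.0114), calls that were both lost without L-III replicate 3 and with no filter on reads, the call to L-IV also without L-III replicate 1 or L-IV replicate 1 or 2. Glyma13g37720.1 (by 3.58) and Glyma06g01380.1 (by 1.97) made up the rest, and both lost the call with no filter on reads and without L-III replicate 1 or 3, Glyma06g01380.1 also without L-V replicate 1 (-1.47) and Glyma13g37720.1 also with voom and with a pseudocount of 0.1.

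**Figure D4:**
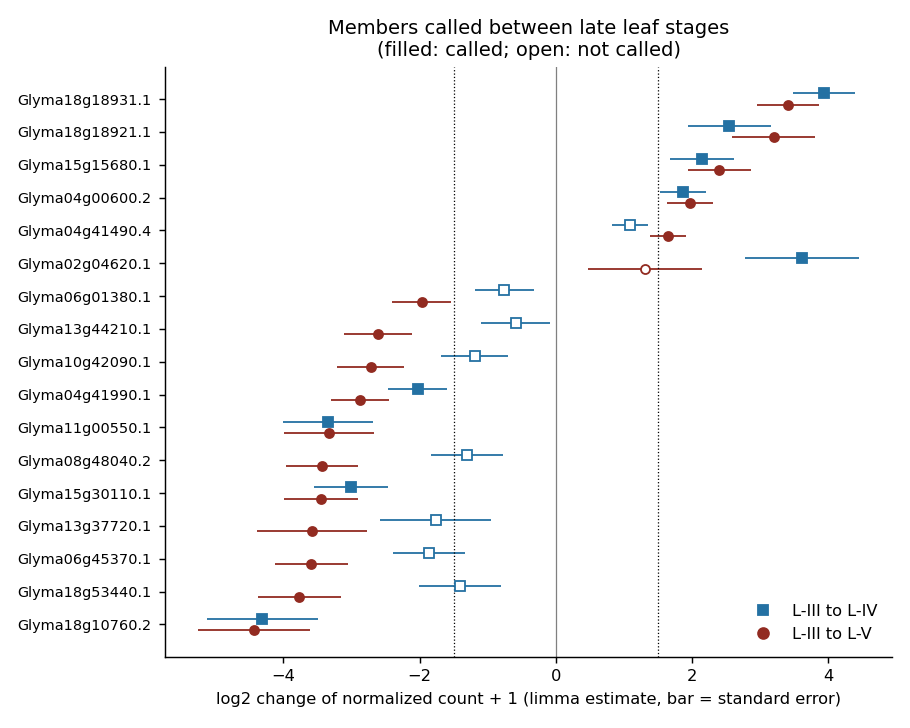
Change of the 17 members called between late leaf stages (horizontal axis, log2 of normalized count + 1, limma estimate with its standard error), from L-III to L-IV in blue squares and from L-III to L-V in red circles, with filled symbols for called changes and dotted lines at 1.5. Rises reach 3.93 and falls reach -4.44, and uncoupling protein 5 is the 1 member called to L-IV but not to L-V.

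While these members fell or rose, the whole leaf changed as well. The summed normalized count of the photosynthesis transcripts ran from 136617 to 297934 at L-III, then from 107303 to 147340 at L-IV, and had come down to between 44663 and 87208 by the last stage. Its part in the late changes of the members was not tested. Of 34 lists of annotated genes, 5 held a member: the dehydrin in the seed reserve list, the xyloglucan enzyme, the glutathione transferase, heat shock protein 21 among 41 heat shock and chaperone transcripts, and the cold and circadian RNA-binding protein among 13 clock and light transcripts. Members made up 0.105% of all transcripts, so that a list without a member says nothing about its genes.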

How the data were processed

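The deposited files hold, for each organ, variance-stabilized log2 values that the authors made with DESeq (version 1.0) from reads aligned with Bowtie to the Gmax189 transcripts, leaving out reads that matched more than 1 transcript. The 2 organs were scaled in separate tables. The values were converted back to normalized counts (largest relative gap to the study's own normalized counts 4.89e-06 over 1999 transcripts per organ) and to whole reads, which were whole within 0.05 for 100% of values. Intervals and the floor of 3 reads cover counting error only.

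Members were found from the deposited values by the rule. Members and gene lists were chosen with earlier results of these data known. Lists were matched by words in the study's annotation text, which holds 3513 genes. "Enough reads" means 10 reads or more in the 3 libraries of a stage together, in 1 stage of the organ or more. The late leaf stages (9 libraries) were fitted with limma 3.58.1 (trend) in R 4.3.3 on log2(normalized count + 1), with Benjamini-Hochberg adjustment over the 46072 transcripts that reached 10 reads in a late stage. The procedure was tested on simulated data with a fixed spread and with changes placed only at L-V in transcripts with higher counts. That simulation therefore does not cover members with few reads. Other steps used Python 3.11.15.

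Genes were named by a rule: the 15 annotated members with the largest smaller-of-both changes, up to 3 members of each list with 2 or more, the members with the largest called late changes, genes with several member transcripts or adjacent loci, transcripts nearest to the limits, and the 3 highest and lowest at C-III relative to C-II. Other members are named where a count rests on them and were chosen after their values were seen. Replicates are separate plants by the study's methods. The replicate numbers give no stated pairing, and none was used in the main fit. Same-numbered late leaf libraries did not deviate together, which cannot exclude a shared block, and the other stages were not looked at. Alternatives were other limits, pseudocounts, filters, voom on recovered reads, a replicate block, a fit to all 15 leaf libraries and leaving out each library. Promoter motifs were not analysed here.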

Additional observations from a re-analysis of the deposited data

How the results depend on the processing

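The number of members was 226 with limits of 1 and 29 with limits of 2, against 77, and between 77 and 110 when 1 library was left out. Of the 77, the fewest kept were 64, without L-I replicate 1, and the most 76, without L-II replicate 1. With log2(normalized count + 1) the number of members was 110, with stage means alone 111, with 10 reads in at least 1 stage of both organs 75 and with 10 reads at C-I and at L-II, an alternative chosen after seeing the data, 73. From L-III to L-IV, the 5 rises became 3 with a pseudocount of 0.1, 1 with no filter, 3 with all 15 leaf libraries and 2 with voom, and between 1 and 6 when 1 library was left out. The 4 falls became 2 with a pseudocount of 0.1, 1 with no filter and between 0 and 5 when 1 library was left out. From L-III to L-V, the 5 rises and 11 falls both became 3 with no filter, where 73320 transcripts were tested, and ranged from 4 to 8 and from 7 to 19 when 1 library was left out. From L-IV to L-V, falls ranged from 0 to 2 and no rise was called. Over all transcripts, the rises from L-III to L-IV numbered 941 in the fit used, 570 with voom and 141 with no filter. Leaving out a library leaves 2 in that stage, whose spread is then estimated with the other stages. With a replicate block, L-IV gave 4 rises and 4 falls against L-III, L-V gave 5 rises and 12 falls against L-III, and neither was called between L-IV and L-V (0 and 0). Same-numbered libraries correlated between -0.13 and 0.15 in their deviations, and differently numbered ones between -0.16 and 0.13. Over the 25 single calls and their alternatives, 340 values kept the call, 83 lost it and none changed direction. The causes of these differences were not tested. Members with few reads, 9 of them with no read at L-I, limit the precision of the early changes.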

Other observations

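The member genes lay on 18 of the chromosomes by their locus names, with 8 on chromosome 6 and 6 each on chromosomes 13, 17 and 18. A read was worth 2.84 normalized counts in L-I replicate 1. This library was the lowest at L-I, or tied for lowest, for 53 of the 77 members. It was the highest, or tied for highest, for 23. The 9 members with no read at L-I count in both numbers. Some other members, such as Glyma02g36605.1, had no read in replicate 1 and in another L-I library, and count as tied for lowest. L-II replicate 3 was the lowest L-II library for 26 members and the highest for 31.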
